A study of Mus musculus with 2 samples.

Results

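The genes described here are the mouse Wnt ligands, the factors that let Wnt proteins leave the cell, and the extracellular antagonists of the pathway, measured in primary myoblasts with and without added Wnt3a. They were taken by gene name, with earlier results of these data known, and are 33 of the 18193 genes to which the arrays' annotation gives at least 1 probe set of their own. The 33 genes have 62 such probe sets. The list holds 19 ligands, 2 secretion factors, 5 frizzled-related proteins and 7 other antagonists.

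Wnt proteins are secreted signals that carry a lipid, which the enzyme Porcn attaches in the endoplasmic reticulum and which the carrier Wls needs to bring them to the cell surface. Outside the cell they bind Frizzled receptors together with Lrp5 or Lrp6, or with other co-receptors, and the β-catenin branch then switches on target genes such as Axin2. The antagonists act at different points. Frizzled-related proteins and Wif1 bind the ligands, Dkk1 binds the co-receptors, and Notum removes the lipid. In muscle, Wnt signals are known to act on the satellite cells that repair fibres and on differentiating myoblasts.

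The myoblasts, the dividing precursors of muscle fibres, came from newborn Sv129 mice and were grown on a coating of laminin and collagen. One culture spent 4 hours with 100 ng/ml of Wnt3a protein in DMEM containing 2% horse serum, and the control culture spent the same 4 hours in that medium without it. The comparison asks which transcripts differ after exposure to the ligand. There was 1 array per condition, so no difference below has a replicate, an error or a p-value, and how many animals gave cells to a culture was not stated.

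Levels are given as log2(intensity + 1), and differences are Wnt3a minus control on that scale. A gene is represented by its brightest probe set and counts as measured where that probe set reached 6, an intensity of 63, on at least 1 array. The floor is a set brightness, so a gene under it may still be expressed. Levels of different probe sets cannot be ranked against each other. The median intensity was 58.7 on the Wnt3a array and 57.9 on the control array, and 11397 genes were measured. The 42 spike-in probe sets were all lower on the Wnt3a array, with a median difference of -0.19, so scaling on them would add 0.19 to every difference.

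Markers of the labelled cell type were bright. All 7 myoblast markers were measured, 4 with higher and 3 with lower values on the Wnt3a array, among them Myod1 at 13.28 on the Wnt3a array and 13.41 on the control array, and Pax7 at 11.08 on the Wnt3a array and 11.20 on the control array. Vcam1, an adhesion molecule, was at 9.97 on the Wnt3a array and 10.60 on the control array, and its 3 probe sets differed by -0.63, -0.60 and -0.51. Myf5 was at 12.45 on the Wnt3a array and 11.96 on the control array, and Des at 11.23 on the Wnt3a array and 10.91 on the control array. None of 8 fibroblast markers reached the floor, and their summed intensity was 284 on the Wnt3a array and 274 on the control array. Of the 6 airway epithelium markers, Scgb1a1 was lower on the Wnt3a array (5.96, against 8.39 in the control), as was Sftpc (5.24, against 6.31). Both passed the floor through the control array alone and therefore had to differ. Against the floor their brightest probe sets were at least 5.23-fold and 1.24-fold lower. The other 4, Epcam, Krt8, Sftpb and Scgb3a2, differed by 0.14, 0.08, 0.09 and 0.03. The summed intensity of that list was 556 on the Wnt3a array and 837 on the control array. Of 6 smooth muscle markers 2 were measured, and their list summed to 9061 on the Wnt3a array and 7280 on the control array, mostly through Acta2 (13.07 on the Wnt3a array, 12.75 on the control array). The sums on the Wnt3a and control arrays were 693 and 648 for Schwann cell markers, 157 and 189 for endothelial ones and 340 and 359 for leukocyte ones. Markers of these lists also reached the floor, 3 of 4 for Schwann cells, 2 of 4 for endothelium and 3 of 5 for leukocytes. For airway epithelium 5 of 6 did, where 11397 of all 18193 genes were measured. The endothelial receptor gene Tek was at 5.34 on the Wnt3a array and 6.16 on the control array, at least 1.11-fold lower against the floor. Tek passed the floor through the control array alone and therefore had to differ. The other endothelial markers Kdr, Cdh5 and Pecam1 differed by 0, 0.03 and -0.08. No marker was at 0, and the part of these lists in the results below was not tested. Axin2, the check of the exposure, was at 10.25 on the Wnt3a array and 6.64 on the control array. In whole cultures, fewer cells of a type and less RNA per cell cannot be told apart.

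The ligand gene Wnt5a had a large difference. The ligand gene Wnt6 (0.41), the frizzled-related genes Sfrp1 and Sfrp2 (0.35 each) and the carrier gene Wls (0.29) had higher values with Wnt3a by smaller amounts. Of the 33 genes, 14 were measured, and 12 of these were higher and 2 lower with Wnt3a, where 47.3% of all measured genes were higher and 51.2% lower. Scaled on the spike-ins, 14 of then 15 measured genes of the set were higher, beside 90.4% of all measured genes, and the medians were 0.37 for the set and 0.19 for all. In the deposited values the medians were 0.21 for the set and -0.01 for all measured genes. Without any floor, 22 of the 33 were higher, 9 lower and 2 identical on both arrays, while 49.8% of all 18193 genes were higher. Wnt5a passed the floor through the Wnt3a array alone and therefore had to differ. The other 13 reached it on both arrays.

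Differences of the set were small in size. Wnt5a alone was 2-fold or more higher, counted by its measured values, and no other gene was higher by 1.5-fold. The share of all measured genes was 0.254% at 2-fold and 0.886% at 1.5-fold. No gene of the set was lower by either amount, where 0.0614% and 0.342% of all measured genes were. At 1.2-fold, a threshold chosen after the values were seen, the higher genes were Wnt5a, Wnt6, Wls, Sfrp1 and Sfrp2. These are 5 of 14, where 4.04% of all measured genes were higher and 4.55% lower by that much. No gene of the set was lower by that much. Wnt5a counts among the 14 through the Wnt3a array alone, so its direction was fixed by the floor. With the floor on the mean, 4 of 13 genes were higher by 1.2-fold. As means over probe sets 1 of 11 was, and on second brightest probe sets 0 of 6. The share of all genes at 1.2-fold in these settings was not counted.

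**Figure D1:**
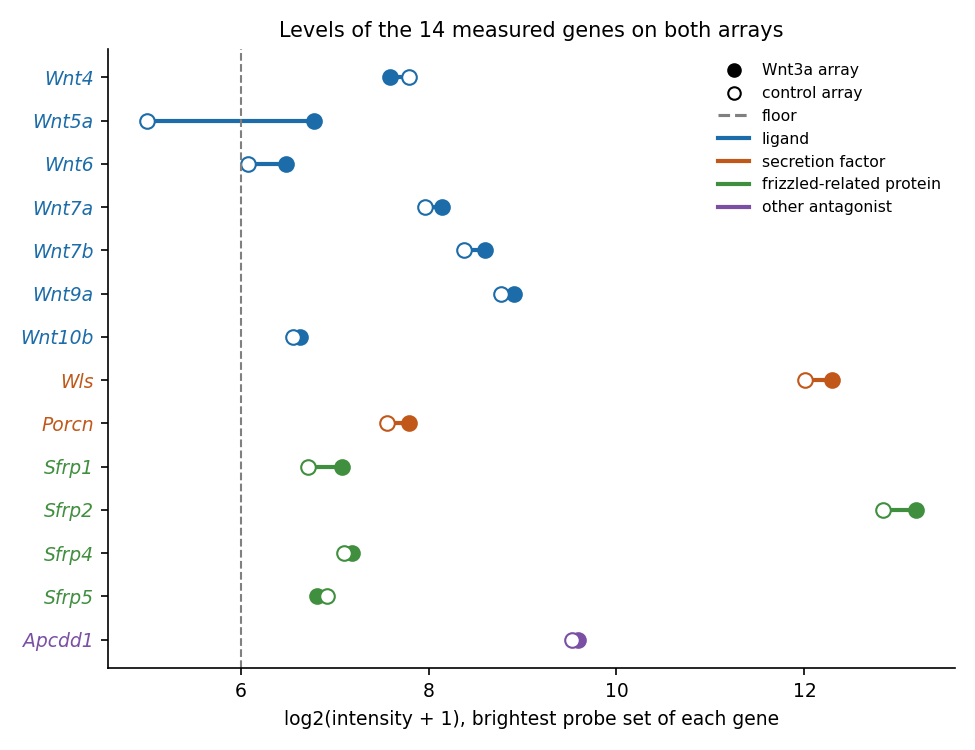
Levels of the 14 measured genes as log2(intensity + 1) of the brightest probe set, with the Wnt3a array as filled and the control array as open circles, coloured by role, and the floor of 6 dashed. Wnt5a lies above the floor with Wnt3a (6.78) and below it in the control, while Wnt4 and Sfrp5 are the genes whose filled circle lies left of the open one.

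Among the ligands, Wnt5a, best known for signalling without β-catenin in cell movement and polarity, had an intensity of 109 on the Wnt3a array and 31.0 on the control array. On the log2 scale the difference was 1.78, and against the floor this probe set was at least 1.72-fold higher. Of 2335 other genes whose mean level lay within 0.5 of that of Wnt5a, 0 were higher by as much. The other 3 probe sets of the gene were below the floor on both arrays and differed by 0.78, 0.40 and 0.32. All 4 differences were positive, but over a wide range of sizes, and their mean was 0.82. Only the brightest probe set reached the floor, so the other 3 are given as values and not read as changes.

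Wnt6, a ligand of ectoderm that overlies the somites in the embryo, was at 6.49 on the Wnt3a array and 6.07 on the control array, a 1.33-fold difference. Of 2070 other genes of like brightness, 1.98% were higher by at least as much. Its second probe set was below the floor and gave 0.30, a value that is not read as a change. Both arrays lay close to the floor.

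Wnt7a, which is known to drive symmetric division of satellite stem cells through Fzd7, was at 8.14 on the Wnt3a array and 7.97 on the control array. Its difference of 0.18 was within the range of like genes, since 9.82% of 1874 were higher by at least as much. The other two probe sets, below the floor, gave 0.26 and 0.05. Fzd7 itself was higher, at 9.21 on the Wnt3a array and 8.84 on the control array.

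Wnt7b, a ligand with known roles in lung and kidney development, was at 8.60 on the Wnt3a array and 8.37 on the control array. Its second probe set, at 6.68 on the Wnt3a array and 6.72 on the control array, ran the other way. The difference of 0.23 on the brighter probe set was reached by 4.48% of 2031 like genes. For Wnt7b the sign therefore depended on the probe set.

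Wnt9a, a ligand of joint formation, was at 8.91 on the Wnt3a array and 8.77 on the control array, and Wnt10b, which holds back fat cell differentiation, was at 6.63 on the Wnt3a array and 6.56 on the control array. These differences of 0.14 and 0.07 were matched or exceeded by 12.6% and 37.5% of like genes. A dimmer probe set of Wnt9a gave -0.07.

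Wnt4, a ligand of kidney and gonad development, was the only measured ligand with a lower value. It was at 7.59 on the Wnt3a array and 7.79 on the control array, with -0.20 on this probe set and -0.09 on its second, both at the floor. Of 1724 like genes, 12.2% were lower by at least as much. With spike-in scaling the difference became -0.01.

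The remaining 12 ligands were below the floor on both arrays. The Wnt3a gene itself, whose protein had been added, was at 5.88 on the Wnt3a array and 5.94 on the control array, just under the floor. The probe set reads the cells' own transcript and not the added protein. Wnt1 and Wnt2b had the same deposited intensity on both arrays, 32.5 and 25.5, as did 3.74% of all 45101 probe sets. Wnt2 (0.23), Wnt3 (0.50), Wnt8a (0.17), Wnt8b (0.10) and Wnt11 (0.33) had positive differences. Wnt5b (-0.11), Wnt9b (-0.02), Wnt10a (-0.10) and Wnt16 (-0.05) had negative ones. Wnt3 had the widest of these on one of the dimmest probe sets of the list, with an intensity of 11.8 on the Wnt3a array and 8.02 on the control array. Both probe sets of Wnt5b, the closest relative of Wnt5a, were below the floor, at -0.11 and -0.07, and 18.5% of 2556 like genes were lower by at least as much as the brighter one.

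**Figure D2:**
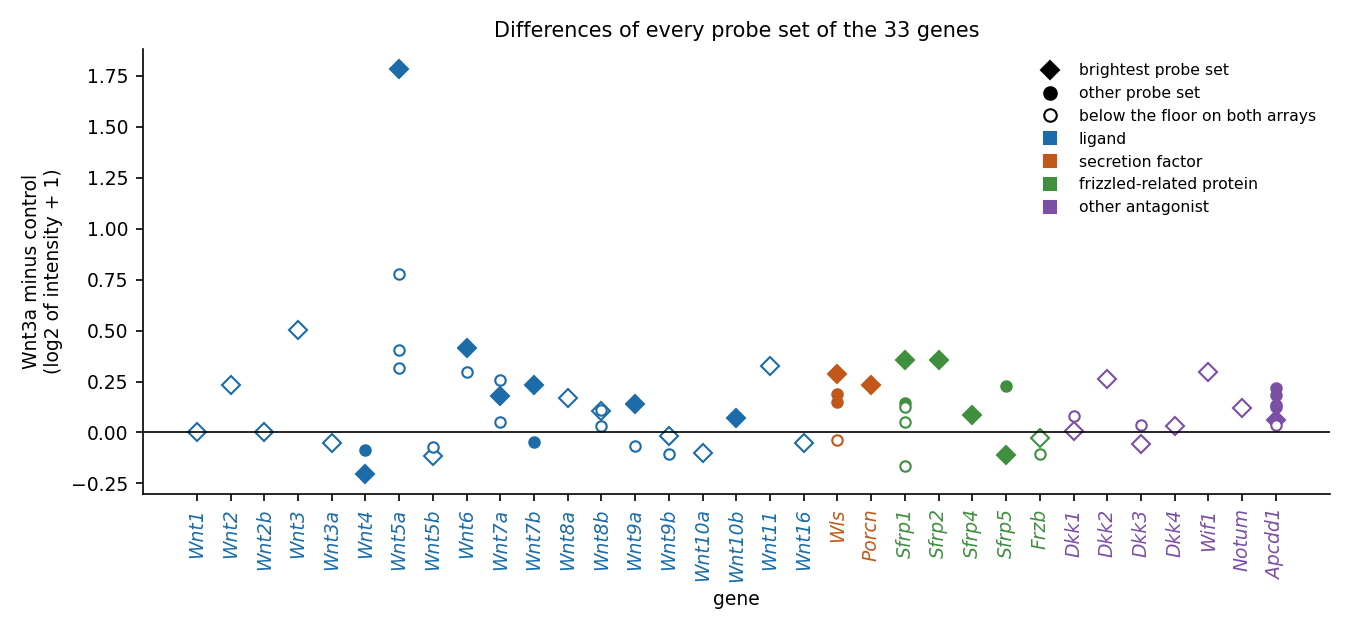
Differences (Wnt3a minus control, log2 of intensity + 1) of all 62 probe sets, by gene, with diamonds for the brightest probe set, circles for others and open symbols below the floor on both arrays. The 4 probe sets of Wnt5a lie between 0.32 and 1.78, the 6 of Apcdd1 between 0.04 and 0.22, and those of Wnt7b and Sfrp5 lie on both sides of 0.

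Both secretion factors were slightly higher with Wnt3a. Wls, the carrier that every lipid-bearing Wnt protein is thought to need, had an intensity of 5023 on the Wnt3a array and 4119 on the control array. Its log2 level was 12.29 on the Wnt3a array and 12.01 on the control array, a 1.22-fold difference. The next probe sets were at 11.87 on the Wnt3a array and 11.72 on the control array, and at 10.24 on the Wnt3a array and 10.05 on the control array. All 3 bright probe sets were higher, with differences of 0.29, 0.15 and 0.19 and an SD between them of 0.07, and the dim remaining one gave -0.04. Of 641 genes of like brightness, 2.65% were higher by at least as much.

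Porcn, the enzyme that attaches the lipid, was at 7.80 on the Wnt3a array and 7.56 on the control array. Its single probe set gave a difference of 0.23, which 6.49% of 1725 like genes reached. Genes of Wls trafficking, a list of retromer subunits, sorting nexins and p24 cargo receptors among others, lay on both sides of 0. Among 9 measured genes, 5 had a higher and 4 a lower value, the median was 0.05 and 0 reached 1.2-fold. That 0 is near the share of all measured genes, 4.04% higher and 4.55% lower by 1.2-fold. The p24 family gene Tmed5 was at 9.73 on the Wnt3a array and 9.99 on the control array. The retromer genes Vps26a (0.13) and Vps35 (-0.08) and the p24 gene Tmed10 (0.08) were closer to 0.

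Sfrp2, a secreted protein with a Frizzled-like domain that binds Wnt ligands, had an intensity of 9369 on the Wnt3a array and 7333 on the control array. Its log2 level was 13.19 on the Wnt3a array and 12.84 on the control array, a difference of 0.35 or 1.28-fold. At this brightness differences were narrow, with the central 95% of 344 other genes between -0.19 and 0.17, and 0.581% of them were higher by at least as much. This rested on 1 probe set.

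Sfrp1 was higher by the same fold, with smaller differences on its other probe sets. Its brightest probe set, at 7.08 on the Wnt3a array and 6.72 on the control array, is of a kind that can match several transcripts. The second, at 6.39 on the Wnt3a array and 6.25 on the control array, gave 0.14. The other 3 were below the floor and gave 0.05, 0.12 and -0.16. Among 1708 like genes 3.22% were higher by at least as much.

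Sfrp4 was at 7.18 on the Wnt3a array and 7.10 on the control array, a difference that 31.3% of like genes reached. Sfrp5 gave opposite answers on probe sets of nearly equal brightness. The brighter was at 6.81 on the Wnt3a array and 6.92 on the control array (-0.11), and the other at 6.96 on the Wnt3a array and 6.74 on the control array (0.23). The sign of Sfrp5 thus followed the choice of probe set, and it also turned positive (0.08) under spike-in scaling. Frzb, also called Sfrp3, was below the floor on both of its probe sets (-0.03 and -0.11).

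**Figure D3:**
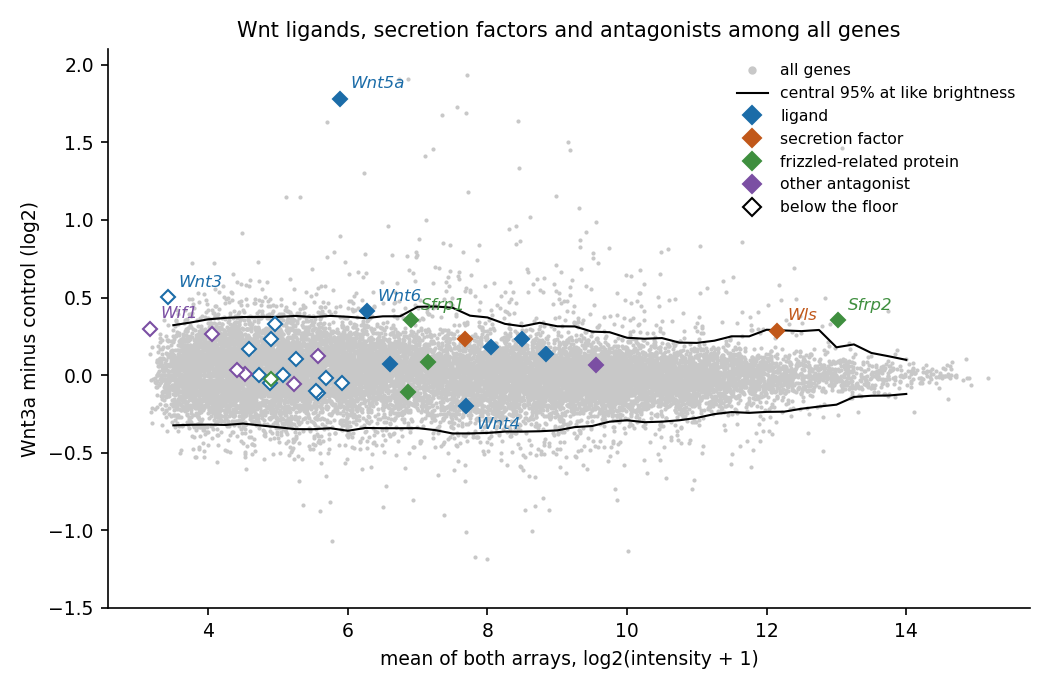
Difference (Wnt3a minus control, log2) against the mean level of both arrays for each gene, grey for all genes and coloured diamonds for the 33 described, with lines around the central 95% of genes within 0.5 of each level. Wnt5a, Wnt6 and Sfrp2 are the measured genes above the upper line, and 9 genes lie outside the plotted range.

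Among the other antagonists Apcdd1 alone was measured. This membrane glycoprotein binds Wnt ligands and Lrp5 and dampens the pathway. Its brightest probe set was at 9.59 on the Wnt3a array and 9.53 on the control array. All 6 probe sets were higher, 5 of them at the floor. For those 5 the differences lay between 0.06 and 0.22, with an SD between them of 0.06. The brightest, like some of the others, is of a kind that can match several transcripts. Without such probe sets the difference was 0.14. The brightest gave the smallest of the 5, and 25.2% of 2166 like genes differed upward at least as far as it did.

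The antagonists of this group other than Apcdd1 were dim here, among them Dkk1 and Notum, which are β-catenin targets elsewhere. Dkk1, which binds Lrp6, was at 4.52 on both arrays, with a difference of 0.01 and 0.08 on its second probe set. Notum, the enzyme that strips the lipid from Wnt proteins, was at 5.63 on the Wnt3a array and 5.51 on the control array. Wif1, a ligand-binding inhibitor, was at 3.32 on the Wnt3a array and 3.02 on the control array. Of 539 like genes, 2.04% were higher by at least as much as Wif1. Dkk2 (0.26), Dkk3 (-0.05) and Dkk4 (0.03) were below the floor as well. All these values lie under the floor on both arrays, so none of these transcripts passed it with Wnt3a. Differences below the floor are given as values and are not read as changes.

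Agreement between probe sets was mixed. Of the 6 genes with at least 2 probe sets at the floor, 4 (Wnt4, Sfrp1, Wls and Apcdd1) had 1 sign throughout and Wnt7b and Sfrp5 did not, where 54.7% of 5084 such genes on the arrays had 1 sign. The pooled SD between probe sets of a gene was 0.12, which 10 of the 14 measured genes exceeded in size, Wnt4 on the lower side and Wnt7b with probe sets of both signs among them. Wnt10b, Sfrp4, Sfrp5 and Apcdd1 were within it. This SD describes probes and not cultures. How many of all measured genes exceeded it was not counted, so 10 of 14 says nothing about the set beside other genes.

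The sequence before the start site was compared for the genes that RefSeq's promoter table (build GRCm38.p6) holds, 22 of the 33. Windows ran from 250 bases before the start site to 50 after it. Promoters of Wnt5a, Wnt7b, Sfrp1, Sfrp4, Porcn and Apcdd1 were not used here. The core letters CTTTGA of the site that TCF and LEF factors recognise, on either strand, were found in 0 of the 8 measured genes with a window and in 4 others, Dkk1, Frzb, Wnt5b and Wnt11. All 4 were below the floor on both arrays. Of all 32851 windows 5257 hold these letters. The GC box GGGCGG, a site of Sp1-type factors, was in 17 of the 22 genes, where 35.7% of all windows hold it, and TATAAA was in 4 of the 22, where 13.6% do. Both strands were searched, no motif shares its spelling with another, and a match describes letters and not a bound site.

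The 250 bases upstream are shown for the genes at least 1.2-fold higher that have a window, Wnt6, Wls and Sfrp2, and for Dkk1, which holds CTTTGA on both strands, all 5′ to 3′ on the gene's strand. Capitals mark these 3 motifs on either strand. Wnt6 lies at chr1:74771642-74771891 (+), Wls at chr3:159839400-159839649 (+), Sfrp2 at chr3:83766071-83766320 (+) and Dkk1 at chr19:30549497-30549746 (-).
Wnt6: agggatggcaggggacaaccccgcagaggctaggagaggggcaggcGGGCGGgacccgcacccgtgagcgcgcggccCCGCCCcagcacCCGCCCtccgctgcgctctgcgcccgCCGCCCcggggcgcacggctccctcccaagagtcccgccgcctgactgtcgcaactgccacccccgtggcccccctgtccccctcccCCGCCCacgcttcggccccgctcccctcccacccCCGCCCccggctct
Wls: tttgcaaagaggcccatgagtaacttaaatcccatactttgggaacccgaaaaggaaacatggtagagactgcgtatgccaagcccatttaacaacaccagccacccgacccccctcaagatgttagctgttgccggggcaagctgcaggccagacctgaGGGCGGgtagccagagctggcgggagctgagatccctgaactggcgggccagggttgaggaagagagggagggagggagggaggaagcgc
Sfrp2: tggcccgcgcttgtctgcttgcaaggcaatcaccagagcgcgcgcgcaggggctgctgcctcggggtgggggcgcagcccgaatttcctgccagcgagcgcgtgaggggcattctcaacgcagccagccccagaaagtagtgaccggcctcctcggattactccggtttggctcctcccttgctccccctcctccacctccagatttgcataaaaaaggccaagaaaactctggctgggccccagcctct
Dkk1: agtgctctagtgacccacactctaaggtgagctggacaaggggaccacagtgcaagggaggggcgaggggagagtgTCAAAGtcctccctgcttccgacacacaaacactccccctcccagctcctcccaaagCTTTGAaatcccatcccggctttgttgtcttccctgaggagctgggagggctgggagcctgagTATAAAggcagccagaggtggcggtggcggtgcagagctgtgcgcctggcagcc
Wnt6 has 6 GC boxes in a stretch with 79.6% G and C, Wls has 1 that begins 90 bases before the start site, and Sfrp2 has none of the 3 motifs. In Dkk1 the CTTTGA letters begin 174 and 117 bases before the start site and TATAAA 54 bases before it. The median share of G and C over all upstream windows was 52.4%, and that of Sfrp2 was 63.6% and of Dkk1 60.8%.

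Receptors and feedback targets were set beside these genes. Among 14 measured receptors and co-receptors, 10 values were higher, 4 were lower and the median was 0.09. Of all measured genes 47.3% were higher and 51.2% lower. Those with the widest measured differences were Fzd1 (0.98, and 0.20 on its other probe set), Fzd7 (0.37 and 0.11), Fzd6 (0.23) and Fzd5. The brighter probe set of Fzd5 was under the floor on the Wnt3a array (5.82, against 6.28 in the control). Fzd5 passed through the control array alone and had to differ. Against the floor this probe set was at least 1.22-fold lower. The dimmer probe set of Fzd5, which stayed under the floor, gave 0.09. Fzd3 was lower by nearly as much as Fzd6 was higher (-0.23). Its other probe sets at the floor gave -0.30, -0.06 and -0.06. The spike-in scaling would add 0.19 to each. Feedback targets held 8 measured genes, 5 with higher values and 3 with lower ones. Of all measured genes 0.886% were higher by 1.5-fold, and 4 of these targets were. They were Axin2 (3.61, and 1.72 on its other probe set), the R-spondin receptor Lgr5, the decoy receptor Bambi (0.66) and the repressor Zfp703 (0.60). The other probe sets of Zfp703 gave 0.12 at the floor and -0.19 below it. Lef1 (-0.13), Nkd1 (-0.20) and Nkd2 (-0.21) were the lower ones, with Nkd1 past the floor through the control array alone. Lgr5 was at 6.89 on the Wnt3a array and 5.58 on the control array, under the floor there. It passed through the Wnt3a array alone and had to differ. Against the floor this probe set was at least 1.85-fold higher, and the dimmer one of Lgr5, under the floor, gave 0.30. The median of the feedback list was 0.40, and that of all measured genes was -0.01. This list was chosen with earlier results of these data known, and Lgr5 passed only through the Wnt3a array. Counts and median of the list are therefore descriptions only.

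The other lists differed little. Of 6 measured extracellular regulators outside the set 4 were higher and 2 lower (median 0.06), with the proteoglycan gene Gpc4 at 0.17, the Dkk receptor Kremen1 at 0.13, Igfbp4 at 0.13 and Gpc6 at -0.10. Other probe sets at the floor gave 0.05, 0.14, 0.01 and 0.14 for Gpc6 and -0.27, 0.06 and 0.08 for Igfbp4. The signs of Gpc6 and Igfbp4 therefore depended on the probe set. The 4 R-spondin genes, whose proteins amplify Wnt signals, were below the floor. Of 12 measured core components 7 were higher and 5 lower (median 0.02), with the transcription factors Tcf7l2 at 0.14 and Tcf7l1 at -0.14, the adaptor Dvl2 at 0.07 and β-catenin's gene Ctnnb1 at -0.07. The second probe set of Dvl2, also at the floor, gave -0.16. In both lists 0 measured genes reached 1.2-fold on their brightest probe set. Of all measured genes 4.04% were higher and 4.55% lower by that much, so in lists this short 0 is near that share.

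**Figure D4:**
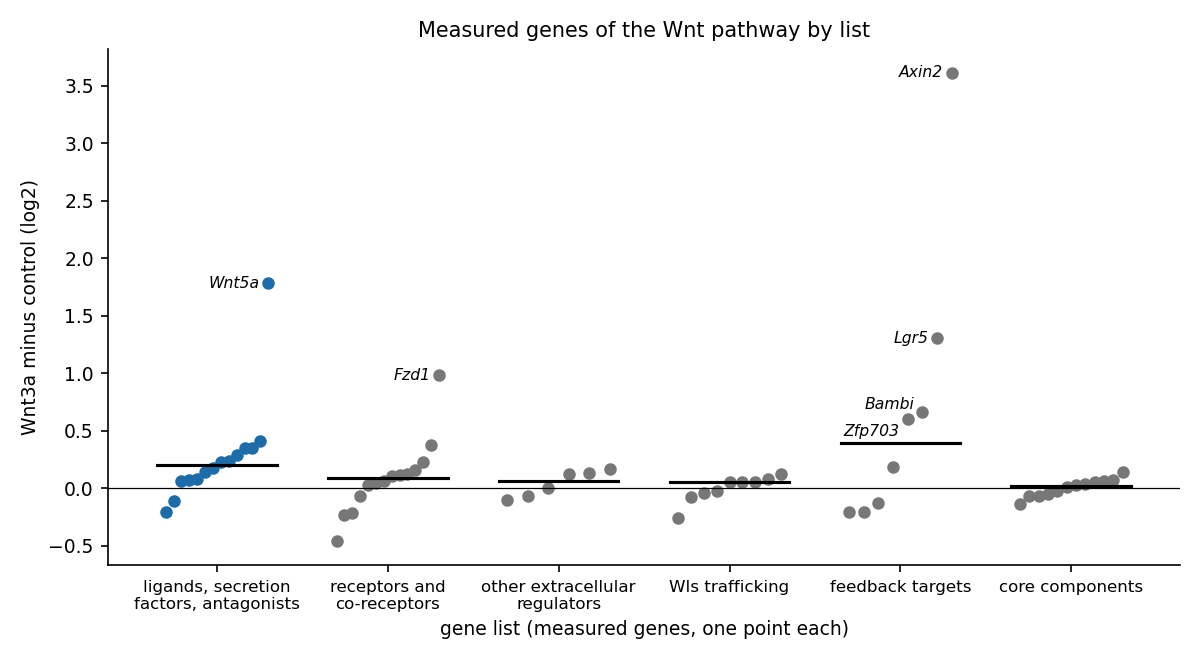
Differences (Wnt3a minus control, log2) of the measured genes, 1 point each, for the set described here (blue) and 5 other lists of the pathway (grey), with a line at each median. The medians are 0.21 for the set, 0.09 for receptors, 0.06 for other extracellular regulators, 0.05 for Wls trafficking, 0.40 for feedback targets and 0.02 for core components.

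How far each value depends on the processing differed by gene, as shown in the plot of differences by setting. Wnt6, Wls, Sfrp1, Sfrp2, Porcn, Wnt7a, Wnt9a, Wnt10b, Sfrp4 and Apcdd1 were positive in every alternative that gave them a value, 10 to 13 of 13, and Wnt5a in 9. Sfrp2 ranged from 0.35 to 0.54 and Wnt6 from 0.35 to 0.60, the upper value in each case from the spike-in scaling. Wls ranged from 0.15, as a mean over its probe sets, to 0.48. Sfrp1 ranged from 0.14, without probe sets that can match several transcripts, to 0.54. Wnt5a was below the floor in 4 settings (the mean as criterion, a floor of 8, averaged probe sets, and its second probe set), and was 0.78 with the control value raised to the floor.

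**Figure D5:**
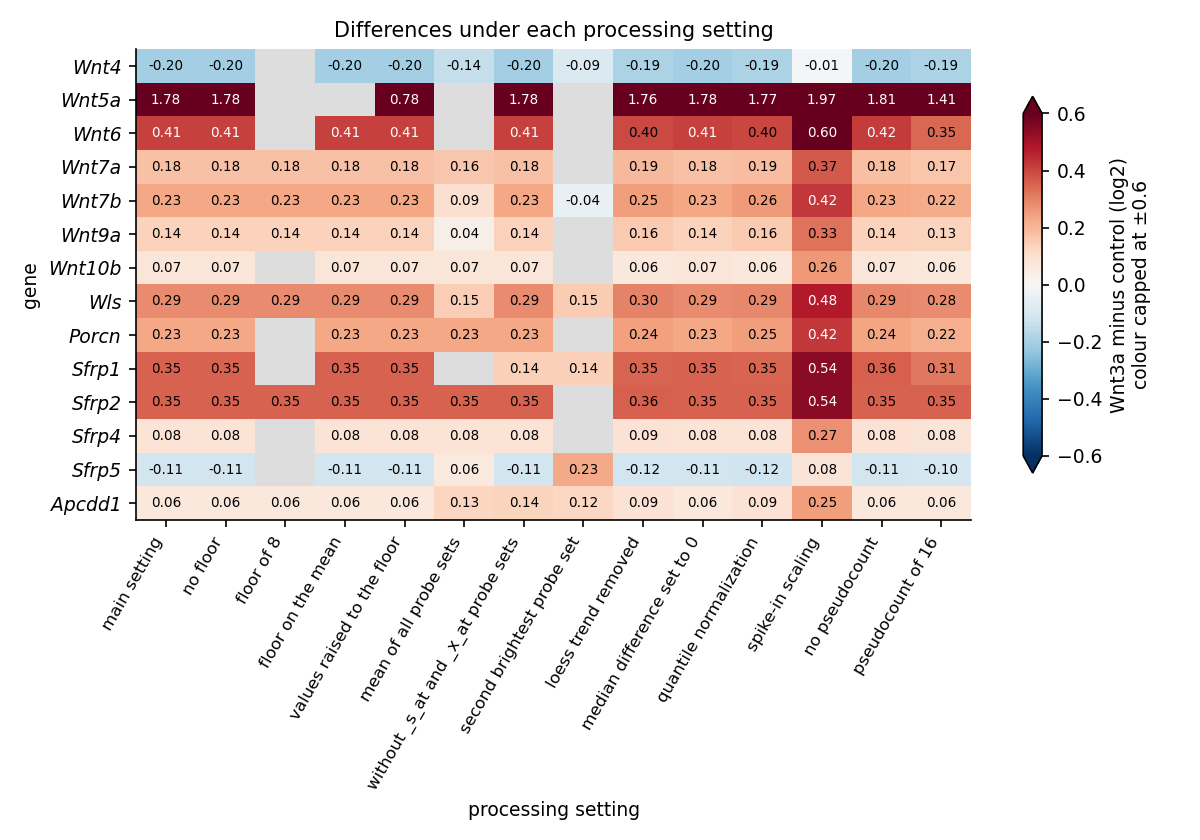
Differences (Wnt3a minus control, log2) of the 14 measured genes in the main setting and 13 alternatives, as numbers and colour (red higher, blue lower, capped at 0.6), grey where the gene was below the floor or had no such probe set. Wnt4 is blue or white throughout, Sfrp5 changes colour in 3 alternatives and Wnt7b in 1, and the spike-in column is the reddest.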

How the data were processed

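The authors deposited 1 intensity per probe set and array on a linear scale. RNA was extracted with Trizol and labelled with biotin by an Affymetrix 3′ kit (per the labels' protocols), and per the submitters' processing notes RMA, affy and limma were used. Settings and genome build are not given in the sources used here. Values were taken as log2(intensity + 1). Of 45101 probe sets, 64 controls were left out and 34945 named a single gene. Each gene was represented by its brightest probe set and measured at a floor of 6 on 1 array or more. All 33 gene identifiers matched RefSeq symbols. With 1 array per group no test was made; differences are set beside those of all genes. The text names every gene of the set, and up to 4 measured genes of each other pathway list by size, with Axin2 always. The receptor gene Fzd3, the lower feedback targets and the cell type markers were named after their values were seen. The set and lists were chosen with earlier results of these data known. The procedure was tested on simulated data. The 1.2-fold threshold was added after the values were seen. 13 alternatives varied the floor, probe set, scaling and pseudocount. Python 3.11.15, numpy 2.4.6, pandas 2.3.3, statsmodels 0.14.6 and matplotlib 3.10.9 were used.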

Additional observations from a re-analysis of the deposited data

How the results depend on the processing

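With 1 array per group every value is a single measurement, and no alternative replaces a replicate. The median of the measured genes was 0.21 and lay between 0.09 and 0.22 in the alternatives other than spike-in scaling, where it was 0.37. Without a floor, 33 genes counted, 22 higher, 9 lower and 9 at least 1.2-fold higher. Of all 18193 genes, 951 were at least 1.2-fold higher in that setting. A floor of 8 left 6 genes, 6 higher and 0 lower, with 2 at 1.2-fold and 0 at 1.5-fold or 2-fold, where 44.5% of all genes were higher and 0.772% by 1.5-fold. A floor on the mean left 0 genes at 1.5-fold and 0 at 2-fold, and values raised to the floor left 0 at 2-fold, since Wnt5a then failed. As means over probe sets, 1 gene was lower, 1 reached 1.2-fold and 0 reached 1.5-fold or 2-fold. The second brightest probe set gave 6 genes, 4 higher, with 0 at 1.2-fold, 0 at 1.5-fold and 0 at 2-fold. Spike-in scaling gave 1 lower, 10 at 1.2-fold and 2 at 1.5-fold, where 90.4% of all genes were higher and 1.89% by 1.5-fold. It adds 0.19 to every gene, so more genes of any kind pass 1.2-fold. For the alternatives that kept a floor, the share of all genes at 1.2-fold was not counted. Their counts at 1.2-fold therefore say nothing about the set beside other genes. A pseudocount of 16 gave 5 lower, since more dim genes passed the floor. No paired analysis was possible because each group had 1 array. Of the single genes, Sfrp5 turned to 0.06 as a mean over probe sets, 0.23 on its other probe set and 0.08 with spike-in scaling, and Wnt7b to -0.04 on its second probe set. Low signal limits the 19 genes below the floor, whose differences ran from -0.11 to 0.50.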

Other observations

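Several Wnt genes lie next to each other in the genome, and RefSeq's gene table has 4 pairs with no other protein-coding gene between them. The pairs are Wnt6 and Wnt10a, Wnt3a and Wnt9a, Wnt9b and Wnt3, and Wnt10b and Wnt1. In 3 of them 1 gene was measured and its neighbour was below the floor on both arrays. Wnt6 differed by 0.41 while Wnt10a had an intensity of 44.2 on the Wnt3a array and 47.4 on the control array. Wnt9a differed by 0.14 beside Wnt3a at -0.05, and Wnt10b by 0.07 beside Wnt1, whose deposited value was the same on both arrays. In the pair of Wnt9b and Wnt3 neither gene reached the floor.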
